A study of Homo sapiens with 18 samples.

Results

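Of the H3K9me3 regions found in every library of untreated and maltonis-treated NB4 cells, 1506 also carried H3K27ac and had no H3K4me3 peak. They are called co-marked regions here. NB4 is an established human cell line derived from acute promyelocytic leukemia (APL), and maltonis is a synthetic molecule derived from maltol. Treated cells received maltonis at 10 µM for 24 h and control cells received none. Sequencing of immunoprecipitated chromatin (ChIP-seq) covered 3 histone marks with 3 libraries per condition and mark, 18 libraries in all. All samples came from this 1 line, and the comparison covers 1 dose and 1 time. The untreated group is the only control, and the cell type could not be checked here against marker genes, since the lists hold no gene names.

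The co-marked regions were chosen from the lists of enriched regions (peaks) deposited for each library. H3K9me3 peaks of the 6 libraries were merged where they overlapped by 1 bp or more, which gave 46996 merged regions, of which 14226 had a peak in all 6 lists. On chromosomes 1 to 18 and 20 to 22, 12541 of these shared regions were shorter than 20000 bp. A region was kept when it overlapped an H3K27ac peak in 3 or more of the 6 H3K27ac lists and no peak in any of the 6 H3K4me3 lists, and 1506 of 12541 regions met both conditions, 12.01%. The calls of all 3 marks thus chose the regions, but the untreated and maltonis lists counted alike. How many lists held H3K27ac, and how strong the called peaks were, is therefore given as description. The reads of each mark were compared between conditions.

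H3K9me3 is laid down by histone methyltransferases, is read by HP1 proteins and is typical of compact, silent chromatin. H3K27ac is laid down by the acetyltransferases p300 and CBP at active enhancers and promoters, and H3K4me3 is found mainly at active promoters. Regions with H3K27ac and no H3K4me3 are commonly read as candidate enhancers. The rule kept H3K4me3 peaks out of the H3K9me3 region only, not out of its surroundings. An H3K4me3 peak lay within 5 kb of 39.4% of the co-marked regions. Of the 1248 H3K27ac regions tested on them, 704 held an H3K4me3 peak outside the co-marked region. The co-marked regions thus join a repressive and an active mark, but as a set they are not read here as enhancers or as far from promoters. Each mark was measured in its own libraries on pooled cells, so marks on the same nucleosome, on different alleles and in different cells cannot be told apart.

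Reads in peaks ranged from 2595814 to 3366296 per H3K9me3 library and from 17974940 to 20773316 per H3K27ac library, and the H3K4me3 lists hold no read counts. Maltonis replicate 3 stood apart among the H3K9me3 libraries, with the fewest reads in peaks and 141.5 Mb under peaks against 162.8 to 171.5 Mb in the other libraries. For H3K9me3, the share of bases covered, the reads per kb, the window shares and the median per called base over co-marked regions are given with and without it. The replicates were biological according to the methods of the study. Where a test of values per library is given, it is an exact two-sided permutation test. With 3 libraries against 3 there are 20 assignments and the smallest p is 0.1, so none of these tests could reach 0.05.

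The co-marked regions were 1600 to 19800 bp wide, with a median of 8400 bp, and covered 14.1 Mb. Their nearest H3K4me3 peak lay at a median distance of 7.87 kb, and 39.4% had one within 5 kb although none overlapped one. For comparison, 8061 shared H3K9me3 regions on the same chromosomes and under the same width limit had neither H3K4me3 nor H3K27ac in any list. Those unmarked regions had a median width of 7800 bp and lay a median of 35.3 kb from H3K4me3. A further 1297 shared H3K9me3 regions held H3K4me3 peaks in 3 or more lists and are called promoter-marked below, with a median width of 9400 bp.

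The co-marked regions were spread over all 21 chromosomes of the rule. They made up between 8.11% and 15.3% of the shared regions of a chromosome. Chromosomes 2, 7, 12 and 6 held the largest numbers, with 198, 164, 140 and 136 regions. The 4 chromosomes with most co-marked regions held 42.4% of them, and the 4 with most shared H3K9me3 regions held 41.4% of those. The median gap between neighbouring co-marked regions was 499.4 kb, and 128 of 1485 gaps were 20 kb or shorter.

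The peaks behind the regions were strong for H3K9me3 and of middling strength for H3K27ac. Strength was taken as the percentile of a peak's island score within its own list. The median H3K9me3 peak in a co-marked region stood at percentile 76.5, 77.7 and 78.4 in the untreated libraries and at 69.7, 69.2 and 67.1 in the maltonis libraries. In unmarked regions the same medians were 67.9, 69.2 and 69.3, and 62.7, 63.2 and 61.9. The median H3K27ac peak on a co-marked region stood between percentiles 47.5 and 50.8 in the 6 libraries, against 76.4 to 79.3 on promoter-marked regions. Read depth followed the same order for H3K9me3, with a median of 104.3 reads per library in a co-marked region and 87.2 in an unmarked one. Promoter-marked regions had a median of 110.7 H3K9me3 reads. Their H3K9me3 peaks stood at percentiles 69.4, 70.2 and 71.7 in untreated and 71.6, 71.1 and 70.5 in maltonis libraries. This was below co-marked regions in untreated libraries and above them in maltonis libraries.

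H3K27ac regions most often overlapped the co-marked regions at an edge. The 6 H3K27ac lists merged into 1888 regions that touched co-marked regions, 1000 to 308000 bp wide with a median of 7600 bp. In 1096 co-marked regions, 72.8%, H3K27ac regions only overlapped an edge. Another 258 held at least 1 whole H3K27ac region, and 152 lay wholly inside one. A median of 42.9% of a co-marked region was under H3K27ac in at least 1 list, with quartiles of 24.8% and 71.0%.

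Called H3K27ac was sparser at the centres of the co-marked regions than 5 kb away, while H3K9me3 was densest there. At the centre, 88.4%, 89.4% and 90.04% of regions were under an H3K9me3 peak in the untreated libraries, and 90.4%, 89.6% and 84.6% in the maltonis libraries. H3K27ac covered 21.7%, 24.3% and 24.0% of the centres in untreated cells and 18.5%, 17.4% and 16.5% after maltonis. At 5 kb upstream of the centre, by coordinate, H3K27ac covered 43.0%, 45.8% and 46.1% in untreated cells and 36.9%, 35.5% and 34.0% after maltonis, while H3K9me3 had dropped to between 17.9% and 22.6%. The H3K27ac dip at the centre was thus present in all 6 libraries.

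**Figure D1:**
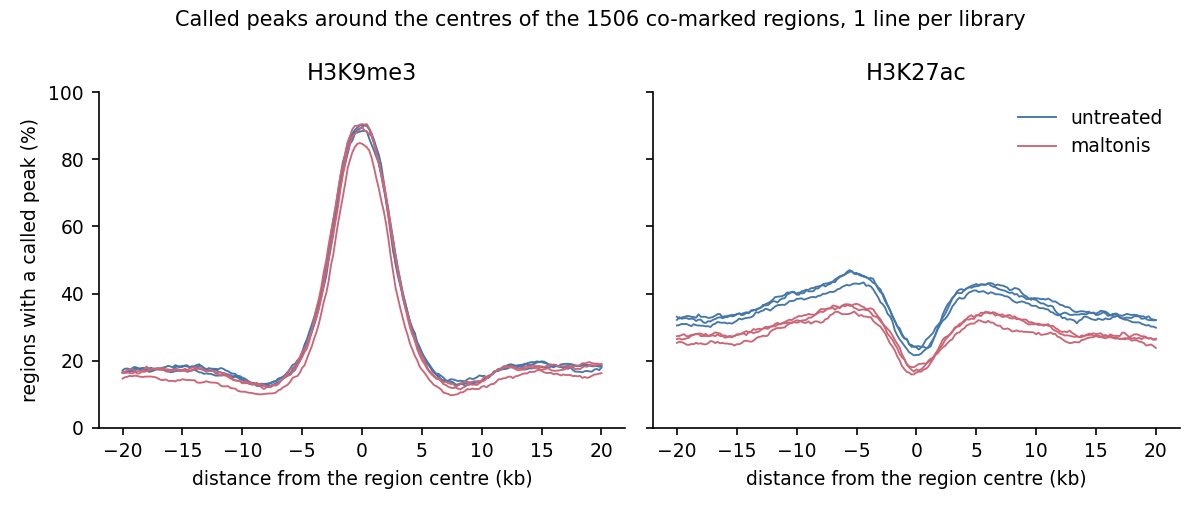
Percentage of the 1506 co-marked regions with a called H3K9me3 peak (left) or H3K27ac peak (right) in 200 bp windows up to 20 kb from the region's centre, 1 line per library. H3K9me3 peaked at the centre at 84.6% to 90.4%, H3K27ac dipped there to between 16.5% and 24.3%, and the maltonis H3K27ac lines lay below the untreated ones.

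Windows of 200 bp gave the same picture by the number of H3K9me3 lists that called them. In the core of the co-marked regions, called in all 6 H3K9me3 lists, 19.6%, 21.8% and 21.6% of 24961 windows were under H3K27ac in the untreated libraries and 17.6%, 16.8% and 15.7% in the maltonis libraries. In the outer rim, called in 1 to 3 lists, the shares were 38.4%, 41.2% and 40.9% of 28563 windows against 31.0%, 31.0% and 28.3%. In the flanks of 5 kb on each side they were 42.3%, 44.8% and 44.7% of 72669 windows against 36.0%, 35.9% and 33.5%. H3K27ac cover therefore rose from core to flank in every library, by 22.7 to 23.05 percentage points in untreated cells and by 17.8 to 19.1 after maltonis.

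Promoter-marked regions were laid out differently. Their core was under H3K27ac in 44.7% to 46.9% of windows in untreated cells and 40.3% to 41.3% after maltonis, and flank minus core lay between -5.67 and -3.61 percentage points in the 6 libraries. Flank minus core was thus above 0 in 6 of 6 libraries for co-marked regions and in 0 of 6 for promoter-marked ones. The rule kept H3K4me3 peaks out of the co-marked regions but not out of their flanks. Promoter-marked regions were chosen for holding such peaks. The part of this choice in the contrast was not tested, and the layout is given as description.

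**Figure D2:**
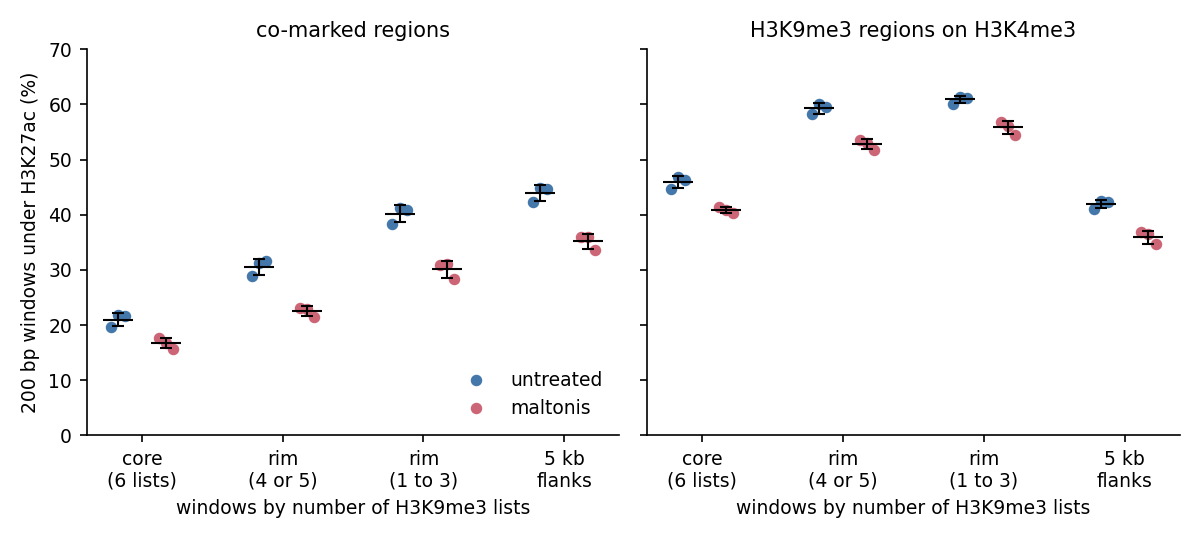
Percentage of 200 bp windows under an H3K27ac peak in the core, rim and 5 kb flanks of co-marked regions (left) and of H3K9me3 regions on H3K4me3 (right), by the number of H3K9me3 lists that called the window. Points are libraries, and black bars are the mean ± SD of 3 libraries. In co-marked regions cover rose from between 15.7% and 21.8% in the core to between 33.5% and 44.8% in the flanks.

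Both marks were also called in the same windows. Counting a window as marked when at least 2 of 3 lists of a condition called it, 16.8% of 70663 windows in co-marked regions carried both marks in untreated cells and 11.9% after maltonis. Windows with H3K9me3 alone made up 50.0% and 51.7%, and those with H3K27ac alone 13.5% and 10.5%. Of the windows with H3K27ac, 55.5% also carried H3K9me3 in untreated cells and 53.1% after maltonis, and of the windows with H3K9me3, 25.1% and 18.7% carried H3K27ac. A window called in all 12 lists of the 2 marks was found in 302 of 1506 regions, 20.1%.

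The number of co-marked regions with an H3K27ac peak was lower after maltonis. It was 1332, 1356 and 1349 in the untreated lists and 1153, 1163 and 1136 in the maltonis lists. The shares of their bases under H3K27ac were 29.4%, 31.9% and 31.9% in untreated cells and 24.3%, 24.0% and 22.2% after maltonis. Neither measure overlapped between conditions, and no test is given since H3K27ac calls chose the regions. On promoter-marked regions, whose choice did not use H3K27ac, cover was 54.8%, 56.5% and 56.2% against 51.2%, 50.6% and 49.4%. The 6 H3K27ac lists also covered less of the genome after maltonis, 171.9 to 185.0 Mb against 217.8 to 229.8 Mb, and its part in the lower cover of co-marked regions was not tested.

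H3K27ac was called in all 6 lists on 801 co-marked regions, 53.2%. It was called in more untreated than maltonis lists on 461 regions and in more maltonis than untreated lists on 188. The clearest patterns were 3 untreated lists and no maltonis list, on 173 regions, and 3 maltonis lists and no untreated list, on 49. These patterns were not counted over all H3K27ac regions, and the H3K27ac lists covered less of the genome after maltonis. Promoter-marked regions with an H3K27ac peak were also fewer, 1163, 1174 and 1174 against 1208, 1214 and 1208 in untreated lists. The imbalance is therefore not read as particular to co-marked regions.

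**Figure D3:**
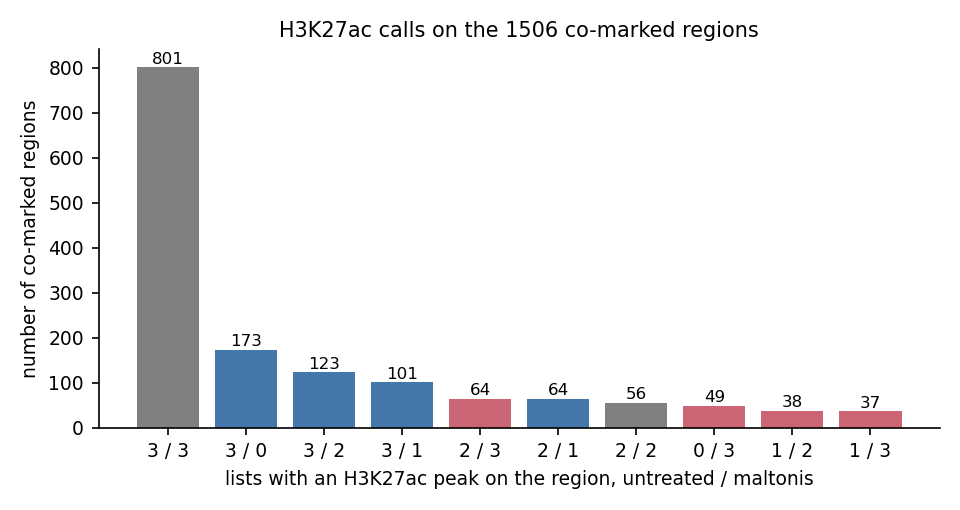
Number of co-marked regions by how many untreated and maltonis lists held an H3K27ac peak on them. Grey bars have equal numbers in both conditions, blue bars more untreated lists and red bars more maltonis lists. The 801 regions with H3K27ac in all 6 lists form the tallest bar, followed by 173 regions with it in 3 untreated lists and no maltonis list.

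The reads of H3K27ac were compared over 20018 merged H3K27ac regions with a peak in all 6 lists. The quasi-likelihood test of edgeR was applied to the reads summed per region. Calls required an FDR (false discovery rate, Benjamini-Hochberg) no higher than 0.01 and a log2 fold change no smaller than 0.58 in size. Over all regions 27.4% were called, 8.18% with more reads after maltonis and 19.2% with fewer. Of the 1248 H3K27ac regions that touched a co-marked region, 90 were called with more reads and 259 with fewer, 28.0% in all, 7.21% and 20.8% by direction. These shares were near those over all regions. The median log2 fold change was -0.090 on co-marked regions and -0.015 over all regions tested.

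At an FDR up to 0.05 with no fold limit, 368 of the 1248 had more reads and 492 fewer, against 34.0% and 33.7% over all regions.

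The balance of directions differed between ways of handling the called length. The median H3K27ac peak on a co-marked region was 4800, 5400 and 5400 bp wide in untreated lists and 4400, 4000 and 3600 bp in maltonis lists. With the called length as an offset, which compares reads per called base, 61 of the 1248 regions were called with more reads and 26 with fewer, against 5.88% and 2.29% over all regions, and the median was 0.13 against 0.16 over all. The offset thus moved the median over all regions tested as well, from -0.015 to 0.16, and on co-marked regions both shares called were slightly below those over all. When the library scaling was recomputed on the length-adjusted reads, the calls were 23 with more reads and 49 with fewer, against 2.13% and 4.58% over all regions. In the 128 regions whose called length differed by no more than a factor of 1.2 between libraries, 5 were called with more reads and 1 with fewer, against 2.09% and 3.59% of all 1338 such regions. Raw reads per kb of the peaks on co-marked regions were 88.9, 88.4 and 87.5 in untreated libraries and 95.85, 108.9 and 107.1 in maltonis libraries, which do not overlap. No test of these is given, since they count only called H3K27ac peaks, which chose the regions and were narrower after maltonis. On promoter-marked regions the reads per kb were 137.4, 136.6 and 135.02 against 145.7, 172.1 and 170.4, also without overlap (exact permutation test, p = 0.1).

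Many of these H3K27ac regions reached well beyond the H3K9me3. A single H3K27ac region, the one sharing most bases, could be assigned in all 6 lists to 1144 co-marked regions, and a median of 25% of its length lay inside the co-marked region. It held an H3K4me3 peak elsewhere in many cases. Of the 1248 H3K27ac regions 704 did so, and on these the median log2 fold change was 0.041, with 51 called up and 115 down, 7.24% and 16.3%. On the other 544, without H3K4me3 in any list, it was -0.31, with 39 called up and 144 down, 7.17% and 26.5%. In all, 23.6% of the 704 and 33.6% of the 544 were called. Over all regions tested 8.18% were called up and 19.2% down, 27.4% in all. Of the 246 regions with at least 50% of their bases in the co-marked region, 23 were called up and 68 down, 37.0%, with a median of -0.24.

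H3K27ac regions clear of both other marks in all lists, 2778 of them, had a median log2 fold change of -0.34. Of these, 144 were called up and 713 down, 5.18% and 25.7%, against 8.18% and 19.2% over all regions. The 544 regions on co-marked ground without H3K4me3 differed little from these. Their median of normalised log2 reads, each region centred on its own mean, minus the same median over the 2778 regions, was -0.011, -0.034 and -0.0078 in the untreated libraries and 0.0087, 0.038 and 0.019 in the maltonis libraries. The difference between conditions was 0.040 on the log2 scale, a small value without overlap (exact permutation test, p = 0.1).

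The 4 co-marked regions with the lowest FDR among those with fewer H3K27ac reads had H3K27ac regions that were also shorter after maltonis. The region chr7:157318201-157329800 (coordinates of build hg19, counted from 1) shared 4400 bp with an H3K27ac region of 9340, 9564 and 9432 reads in untreated cells and 1984, 2164 and 1939 after maltonis. Its log2 fold change was -2.17 ± 0.030 (SE, FDR = 1.85e-10, edgeR) and stayed at -1.19 per called base (FDR = 1.73e-05). The H3K27ac region that touched chr3:126277801-126286000 by 1000 bp had 3780, 3841 and 3738 reads before and 1058, 1258 and 1173 after treatment, a log2 fold change of -1.66 ± 0.033 (SE, FDR = 1.99e-09, edgeR). Its called length fell from between 33000 and 36200 bp to between 11800 and 14200 bp, and per called base the value was -0.26 (FDR = 0.0529). At chr10:134300801-134309000 reads went from 1019, 1006 and 1012 to 234, 243 and 241. At chr20:57821601-57834600 they went from 2379, 2496 and 2499 to 1151, 1331 and 1213. The 2 conditions were far apart in each of these 4 regions. H3K9me3 reads in them had log2 fold changes from -0.45 to 0.22, and none was called.

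The H3K27ac regions with the lowest FDR among those with more reads all held H3K4me3 peaks outside the co-marked region. So did the 4 with fewer reads above, the one at chr20:57821601-57834600 in only 1 list. At chr2:178503001-178513400 the H3K27ac reads were 3980, 4173 and 4094 in untreated cells and 6853, 7831 and 7341 after maltonis, a log2 fold change of 0.89 ± 0.019 (SE, FDR = 3.16e-09, edgeR) that was 0.75 per called base. At chr16:77727801-77743400, which lay wholly inside its H3K27ac region, they were 3294, 3523 and 3626 against 6437, 7193 and 6851. At chr13:32673801-32690000 they were 4485, 4521 and 4778 against 8616, 9489 and 9210. At chr10:89852601-89863400 they were 2726, 2866 and 2790 against 4581, 5063 and 4873. All maltonis libraries exceeded all untreated ones in these 4 regions. Their H3K9me3 log2 fold changes ran from 0.082 to 0.63, with no call.

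H3K9me3 reads in co-marked regions were slightly lower after maltonis, in every library and on every chromosome of the rule. The median log2 fold change over the 1506 regions was -0.12, so the median fell by 8.19% on a linear scale, against -0.0024 over all 14226 regions tested. Log2 fold changes were below 0 in 67.4% of the co-marked regions and in 50.3% of all regions. Per library, the median of the centred log2 reads over co-marked regions was 0.075, 0.078 and 0.072 in untreated cells and -0.034, -0.053 and -0.047 after maltonis. The 2 conditions did not overlap (difference -0.12, exact permutation test, p = 0.1).

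As a whole, neither comparison set moved this way in the centred values. These values are relative to all tested regions after scaling and give no absolute gain or loss. Unmarked regions had medians of 0.013, 0.020 and 0.019 in untreated libraries and 0.011, 0.023 and 0.014 in maltonis libraries, which overlapped. Promoter-marked regions moved the other way, from -0.028, -0.057 and -0.066 to 0.088, 0.061 and 0.095. The difference between co-marked and unmarked regions was 0.062, 0.058 and 0.053 in untreated libraries and -0.045, -0.076 and -0.062 in maltonis libraries, a change of -0.12 (exact permutation test, p = 0.1). Against promoter-marked regions the change was -0.25 (exact permutation test, p = 0.1). Since both sets come from the same libraries, a scaling error common to a library's regions does not enter these differences.

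**Figure D4:**
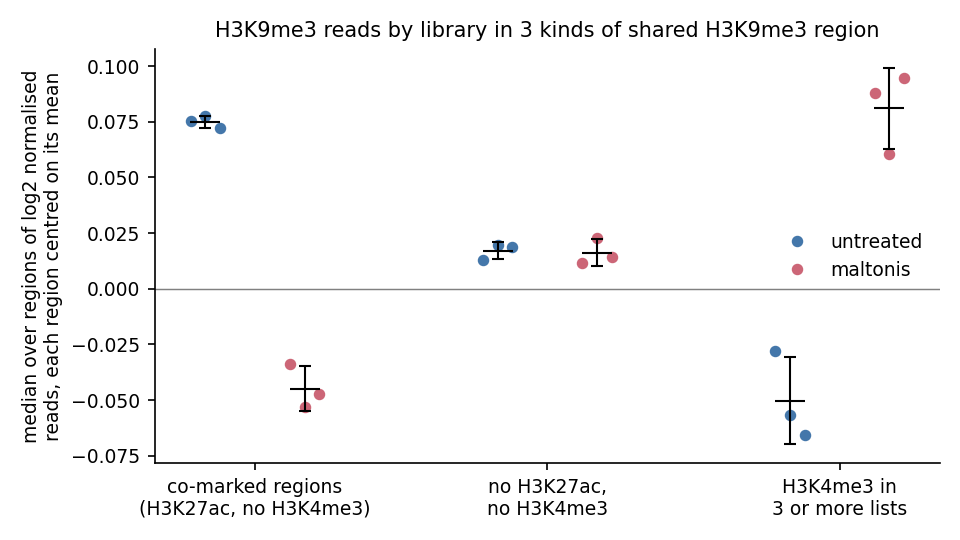
H3K9me3 reads per library in 3 kinds of shared H3K9me3 region, as the median over regions of log2 normalised reads after centring each region on its mean over the 6 libraries. Points are libraries, and black bars are the mean ± SD of 3 libraries. Co-marked regions lay between 0.072 and 0.078 in untreated and between -0.053 and -0.034 in maltonis libraries, promoter-marked regions moved the opposite way, and unmarked regions overlapped between conditions.

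The lower H3K9me3 was shared broadly among the co-marked regions. The median log2 fold change was below 0 on 21 of 21 chromosomes, from -0.34 to -0.024, and below that of the unmarked regions on all 21. It was -0.13 for the 593 regions within 5 kb of an H3K4me3 peak and -0.096 for the 151 regions more than 50 kb away. Unmarked regions had -0.023 within 5 kb, -0.029 at 5 to 20 kb, 0.0045 at 20 to 50 kb and 0.030 beyond 50 kb. Their centred medians changed by -0.027 within 5 kb, -0.030 at 5 to 20 kb and 0.027 beyond 50 kb, each without overlap between conditions. Unmarked regions near H3K4me3 were thus also slightly lower, by less than co-marked ones. By H3K9me3 strength it was -0.042 in the 204 regions up to percentile 50 and -0.11 in the 426 regions above percentile 85. Unmarked regions had 0.097 and -0.027 in these bands. In the 204 weakest co-marked regions the centred medians overlapped between conditions (exact permutation test, p = 0.3). They were 0.065, 0.018 and -0.0044 in untreated and 0.023, -0.036 and -0.078 in maltonis libraries. By width the median log2 fold change was -0.15 in 277 regions under 6000 bp and -0.11 in 578 regions of 10000 bp or more. In each of these bands the co-marked regions lay below the unmarked ones. By cover, the median was -0.14 in the 377 regions with less than 25% under H3K27ac and -0.10 in the 349 regions with 75% or more.

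Per called base the difference in H3K9me3 was smaller. With the called length as an offset the median over the co-marked regions was -0.046, against 0.012 over all regions tested and 0.0090 in unmarked regions, and 60.0% of co-marked regions were below 0. Without maltonis replicate 3 the same fit gave -0.099, against -0.042 over all regions and -0.044 in unmarked regions. In the 19 co-marked regions whose called length differed by no more than a factor of 1.2 between libraries, the median for summed reads was -0.18, against 0.0060 in all 379 such regions. The called share of the co-marked bases was 66.6%, 67.7% and 68.7% in untreated libraries and 68.1%, 66.4% and 59.1% in maltonis libraries, so the conditions overlapped. The difference was -3.09 percentage points and -0.379 without maltonis replicate 3. Raw reads per kb of the H3K9me3 peaks were 20.5, 20.97 and 21.1 in untreated and 19.001, 18.9 and 18.05 in maltonis libraries, a difference of -2.22 and of -1.93 without maltonis replicate 3. In unmarked regions they were 18.5, 18.8 and 18.9 against 17.7, 17.6 and 16.8. In promoter-marked regions they were 26.98, 27.57 and 27.74 against 26.60, 26.65 and 26.02. Raw reads per kb were thus lower without overlap in both comparison sets as well. The difference between co-marked and unmarked regions moved by -0.856 reads per kb from untreated to maltonis libraries (exact permutation test, p = 0.1), and by -0.84 without maltonis replicate 3.

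Single co-marked regions rarely passed the test for H3K9me3. Over all regions 0.253% were called with more reads and 0.0141% with fewer, 0.267% in all, and among the 1506 co-marked regions 0 were called with more and 1 with fewer. At an unadjusted p under 0.05, which 8.60% of all regions passed with more reads and 5.47% with fewer, 42 co-marked regions had more reads and 147 fewer. DESeq2 called 3 with more reads and 10 with fewer, against 0.928% and 0.274% over all regions. At an FDR up to 0.05 with no fold limit, 3 had more reads and 7 fewer, against 1.2% and 0.225% over all regions. With the called length as an offset 0 were called either way, against 0.119% and 0.0211% over all regions, and with the scaling recomputed 0 and 2, against 0.119% and 0.0422%. With the offset and without maltonis replicate 3 they were 0 and 2, against 0.0844% and 0.0351%. A change of the size of the median lies under the fold limit of 0.58, and could not be called in a single region.

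The 1 called region was chr18:2858801-2868000. It had 130, 140 and 127 H3K9me3 reads in untreated cells and 48, 45 and 36 after maltonis, a log2 fold change of -1.51 ± 0.22 (SE, FDR = 0.00725, edgeR). The called length fell with the reads, from 6600, 7600 and 6400 bp to 2200, 1800 and 2600 bp, and per called base the value was 0.15. The call was lost when any 1 of the 6 libraries was left out, with an FDR from 0.027 to 0.036 (edgeR), while the log2 fold change stayed between -1.56 and -1.47. H3K27ac over its edge was also lower, with 1627, 1632 and 1562 reads before and 1088, 1297 and 1150 after, a log2 fold change of -0.40 that did not reach the limit of 0.58.

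The region with the next lowest p for fewer reads, not called, was chr12:43136001-43151400. Its H3K9me3 reads were 230, 215 and 201 in untreated cells and 121, 99 and 83 after maltonis (log2 fold change -0.98 ± 0.17 SE, FDR = 0.0193, edgeR), and it had H3K27ac in 3 untreated lists and no maltonis list. The conditions were well apart in reads and in length. Toward more reads, the 2 regions with the lowest p were not called either. The region chr9:19471401-19488200 had 70, 61 and 42 reads before and 132, 161 and 132 after (log2 fold change 1.41 ± 0.26 SE, FDR = 0.0228, edgeR). At chr1:4063001-4072600, with H3K27ac in no untreated and 3 maltonis lists, the reads were 174, 155 and 173 before and 263, 243 and 255 after (log2 fold change 0.72 ± 0.14 SE, FDR = 0.0348, edgeR). Summed H3K9me3 reads were thus higher after maltonis at this region, where H3K27ac was called only in maltonis lists. At chr12:43136001-43151400 they were lower, and H3K27ac was called only in untreated lists. Per called base the H3K9me3 log2 fold change was 0.37 at chr1:4063001-4072600 and 0.14 at chr12:43136001-43151400. The lower H3K9me3 at chr12:43136001-43151400 was therefore not kept per called base. H3K27ac reads were not tested at either region.

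H3K9me3 was not higher on the regions where H3K27ac calls were lost. On the 173 co-marked regions with H3K27ac in 3 untreated lists and no maltonis list, the median H3K9me3 log2 fold change was -0.093, and the centred medians were 0.061, 0.068 and 0.082 in untreated and -0.019, -0.045 and -0.044 in maltonis libraries. On the 49 regions with the opposite pattern the median was -0.053, and the libraries overlapped between conditions. On the 801 regions with H3K27ac in all 6 lists it was -0.13. The median was thus below 0 in all 3 sets of regions.

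The same held window by window. In windows that had H3K27ac in 3 untreated and no maltonis lists, 2501 of them, H3K9me3 was called in 57.9%, 58.1% and 61.7% in untreated libraries and in 62.1%, 56.1% and 41.7% in maltonis libraries. The conditions overlapped, and the low value is that of maltonis replicate 3. The difference of means was -5.98 percentage points, and -0.18 without that library. In 8392 windows with H3K27ac in all 6 lists the shares were 55.0%, 57.5% and 57.2% against 56.4%, 56.8% and 46.4%, a difference of -3.40 and of -0.0079 without it. In 37376 windows without H3K27ac they were 72.3%, 73.2% and 74.3% against 72.8%, 70.6% and 64.5%, a difference of -3.93 and of -1.53 without it. H3K9me3 was therefore called less often in windows with H3K27ac in all 6 lists than in those without, by 13.9 to 18.2 percentage points in every library. In promoter-marked regions the windows with H3K27ac in all 6 lists had more H3K9me3 after maltonis, 66.1%, 65.4% and 57.2% against 56.0%, 55.7% and 55.9% (exact permutation test, p = 0.1).

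Side by side, the fold changes of the 2 marks were only weakly related across regions. Among the 1144 co-marked regions with an H3K27ac region in all 6 lists, both marks were lower in 445 and both higher in 178. H3K9me3 was higher and H3K27ac lower in 184, and the reverse held in 337. Pearson's r across regions was 0.11 and Spearman's rho 0.081 for summed reads, and -0.022 and -0.014 per called base. These are descriptions, since regions of the same libraries are not replicates and 1144 regions share 1093 H3K27ac regions. In the 240 co-marked regions whose H3K27ac was called with fewer reads the median H3K9me3 log2 fold change was -0.16, in the 83 with more reads it was -0.053, and in the 821 others -0.13. No co-marked region was called for both marks. Only 1 of the 1506 was called for H3K9me3 at all, against 0.267% of all regions tested, so this says little about how the marks relate.

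**Figure D5:**
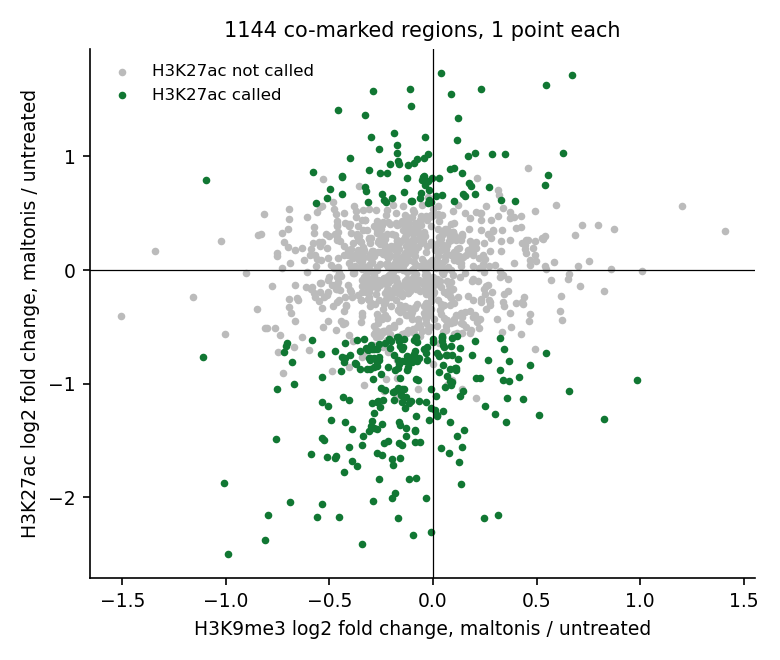
Log2 fold change (maltonis over untreated, summed reads, edgeR) of H3K9me3 against that of the H3K27ac region sharing most bases, for 1144 co-marked regions. Green points have H3K27ac called at an FDR up to 0.01 with a log2 fold change no smaller than 0.58 in size. Points spread along the vertical axis, with 445 in the lower left and 184 in the lower right, and Pearson's r across regions was 0.11.

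Some of the co-marked regions with opposite directions of the 2 marks in summed reads are named here. At chr16:11400001-11406400 H3K9me3 reads were 102, 138 and 153 in untreated cells and 71, 52 and 47 after maltonis, a log2 fold change of -1.09 ± 0.24 (SE, FDR = 0.0546, edgeR) that did not pass. The H3K27ac region around it, which held no H3K4me3 peak, went from 781, 815 and 792 reads to 1281, 1409 and 1312, a log2 fold change of 0.79 ± 0.042 (SE, FDR = 3.4e-07, edgeR). The H3K27ac length stayed between 10800 and 13000 bp, and the value per called base was 0.91. The H3K9me3 length fell with the reads, from 5200, 6200 and 6200 bp to 2800, 2200 and 2800 bp. Per called base the H3K9me3 value was 0.089. Summed reads of both marks were apart between conditions at this region. At chr11:82615801-82631000 H3K9me3 reads were 223, 146 and 171 against 81, 72 and 46, and H3K27ac reads were 2832, 2918 and 3017 against 2976, 3348 and 3234. At chr12:46128401-46139600 they were 223, 237 and 297 against 148, 128 and 150, and H3K27ac reads were 3505, 3372 and 3624 against 3661, 4163 and 3925. H3K9me3 reads were lower in all maltonis libraries in these last 2 regions and were not called. The H3K27ac log2 fold changes, 0.17 and 0.21, were under the limit. Per called base the H3K9me3 values of these 2 were 0.40 and -0.025, and those of H3K27ac were 0.33 and 0.42. The opposite directions of summed reads were thus not kept per called base at chr11:82615801-82631000.

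The strongest co-marked regions of either mark are given as a description. None was called for H3K9me3, but only 1 of all 1506 co-marked regions was, and 0.267% of all regions tested. The lack of a call thus does not set the strongest regions apart. Highest by mean H3K9me3 percentile were chr5:178011601-178013400, chr9:35007201-35023400 and chr11:108072201-108086200, at percentiles 99.5, 98.9 and 98.7. The first is short, and its 56 to 94 reads lay in 400 to 1800 called bp. At chr9:35007201-35023400 H3K9me3 reads were 514, 522 and 476 in untreated cells and 476, 463 and 414 after maltonis, a log2 fold change of -0.045 ± 0.087 (SE). At chr11:108072201-108086200 they were 378, 402 and 420 against 350, 342 and 319, a log2 fold change of -0.13 ± 0.096 (SE). Highest by H3K27ac were chr3:18032601-18044200, chr1:92914001-92925000 and chr6:42288401-42295600, at percentiles 99.9, 99.9 and 99.9, with H3K27ac regions of 100400, 40600 and 147800 bp that held H3K4me3 elsewhere. The H3K27ac log2 fold changes of these 3 were 0.25, 0.28 and 0.088, and those of H3K9me3 were 0.49, 0.28 and -0.54.

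The regions nearest the width limit are given as a description. Just inside, chr9:3415401-3435200, chr6:6590801-6610600 and chr9:16752401-16772200 were 19800 bp wide, with H3K9me3 log2 fold changes of -0.035, 0.048 and 0.35. Just outside, chr11:102425401-102445400, chr9:17308401-17328600 and chr9:33930801-33951000 were 20000, 20200 and 20200 bp wide, with -0.024, -0.31 and -0.38. H3K9me3 reads at chr9:16752401-16772200 ranged from 46 to 170 in untreated and from 35 to 207 in maltonis libraries, so the conditions overlapped there.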

How the data were processed

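The authors deposited 1 peak list per library in hg19 coordinates. The submitters' processing notes name BWA, SAMtools, MACS2 and SICER, and the methods of the study name epic2 for the broad marks. Versions were not given in the sources used here. In the H3K9me3 and H3K27ac lists deposited by the authors, each region has a read count, not normalised, and an island score, both for the boundaries of that library. The deposited H3K4me3 lists hold a score, a fold enrichment as a ratio and −log10 p and q values, and only their positions were used. Regions, comparison sets and named regions were chosen with earlier results of these data known.

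Counts were summed per merged region with a peak in all 6 lists on chromosomes 1 to 22 and X, and tested with edgeR 4.0.16 (quasi-likelihood, TMM, Benjamini-Hochberg over all regions), with DESeq2 1.42.0 in R 4.3.3 as an alternative. Standard errors come from the F statistic. The scripts were tested on simulated data. Windows, exact tests and figures were made with Python 3.11.15, and 0.5 reads were added before the centred log2 values. Total reads per library were not used, so scaling rests on reads in shared regions. Regions named are, per mark and direction, the 4 called ones with the lowest FDR, or the 2 with the lowest p where fewer than 2 were called, besides the 3 strongest per mark, 3 on each side of the width limit and 3 with opposite directions. No gene annotation or sequence of hg19 was used. Alternatives tried were DESeq2, other library scaling, read filters, called length, similar length, other limits of the rule, left-out libraries and a replicate block. Those added after the data were seen were the recomputed scaling, the values without maltonis replicate 3, H3K27ac regions without H3K4me3 or mostly inside a co-marked region, the bands of distance, strength, width and cover, and the windows.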

Additional observations from a re-analysis of the deposited data

How the results depend on the processing

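The number of co-marked regions was 1506, and 801 with H3K27ac in all 6 lists, 307 with H3K27ac over at least 50% of the region in 3 lists and 928 under 10000 bp. It was 1274 with peaks merged within 1000 bp and 1523 with the strongest 75% of peaks.

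For H3K9me3, the median log2 fold change of -0.12 stayed below 0 in every setting. It was -0.11 with reads in peaks as library size, -0.046 with the called length as an offset, -0.099 with that offset and without maltonis replicate 3 (where the median over all regions was -0.042), -0.060 with the scaling recomputed, -0.18 in the 19 regions of similar length, -0.13 with H3K27ac in all 6 lists and -0.14 with peaks merged within 1000 bp. Calls with more and fewer reads were 3 and 10 by DESeq2 and 3 and 7 at an FDR of 0.05 without a fold limit, where 1.2% and 0.225% of all regions passed. The 1 region called with fewer reads became 0 with a mean of at least 100 reads, with the called length as an offset, in regions of similar length, where H3K27ac covered 50% and with peaks merged within 1000 bp. It became 2 with the scaling recomputed and 2 with the offset and without maltonis replicate 3, and 0 (range 0 to 0) when any library was left out. At chr18:2858801-2868000 the value of -1.51 turned to 0.15 with the length offset and 0.13 with the scaling recomputed, and at chr12:43136001-43151400 that of -0.98 turned to 0.14 and 0.13, with a called length that shortened with the reads.

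For H3K27ac, the median of -0.090 turned to 0.13 under the length offset and 0.063 in the 128 regions of similar length. It was -0.028 with the scaling recomputed, -0.061 with H3K27ac in all 6 lists, -0.059 where H3K27ac covered 50%, -0.047 under 10000 bp, -0.31 without H3K4me3 and -0.24 with at least 50% of the bases in a co-marked region. Calls with more and fewer reads, 90 and 259 in the report, were 61 and 26 with the length offset, 23 and 49 with the scaling recomputed, 5 and 1 in regions of similar length, 68 and 166 with H3K27ac in all 6 lists, 29 and 59 where it covered 50%, 63 and 156 under 10000 bp, 39 and 144 without H3K4me3, 23 and 68 with 50% of the bases inside, and 368 and 492 at an FDR of 0.05. Several of these sets hold fewer regions. Of all regions 8.18% and 19.2% were called with summed reads, and 34.0% and 33.7% passed at an FDR of 0.05. Leaving out 1 library gave 80 to 90 with more and 231 to 251 with fewer reads.

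Replicate numbers showed no sign of pairing the samples. Same-numbered libraries deviated from their group means with correlations between -0.019 and 0.030, and differently numbered ones between -0.034 and 0.032. This cannot show whether same-numbered samples were handled together. With a replicate block, 0 co-marked regions were called with fewer H3K9me3 reads, and 88 H3K27ac regions were called with more and 251 with fewer.

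The share of co-marked bases under H3K9me3 differed by -3.09 percentage points between conditions, which overlapped. Without maltonis replicate 1 it was -4.87 and no longer overlapped, and the range over left-out libraries was -4.87 to -0.379. Depth limits H3K9me3, at about 100 reads per region, and called length cannot be separated from reads in peak lists.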
